A study of Mus musculus with 2 samples.

Results

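The Mir378 genes of the mouse comprise Mir378a, which lies in an intron of Ppargc1b, and its paralogs Mir378b, Mir378c and Mir378d, to which Gm25301 was added, a microRNA gene annotated over Mir378a on the other strand. These 5 genes were picked by their GENCODE M21 names from the 2202 microRNA genes counted in each library. All 5 had an entry in both libraries, and 4 of them had at least 10 counts in each. The libraries came from heart tissue of female B6CASTF1/J mice, a hybrid of a laboratory strain and a wild-derived strain, at 4 days of age, with RNA below 30 nt selected for sequencing. Each of the 2 hearts gave 1 library, the first (replicate 1) from the animal numbered 3 and the second (replicate 2) from the animal numbered 4. Both carried the same donor entry, belonged to the same group and had no treatment or altered allele in their labels, so levels and the gap between the hearts could be measured, and no condition could be compared.

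MicroRNAs are cut from hairpin transcripts into strands of about the length of a guide, which lead the silencing machinery to messenger RNAs through the seed, the bases near their 5′ end. Ppargc1b encodes PGC-1β, a transcriptional coactivator of mitochondrial and lipid metabolism, and Mir378a is transcribed with it. The arms of its hairpin give miR-378 and miR-378*, which are known for restraining oxidative metabolism, with Crat a target of the former and Med13 of the latter. In cardiomyocytes miR-378 is also known for restraining hypertrophic growth signals.

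Mature sequences of Mir378b, Mir378c and Mir378d were taken from RefSeq (GRCm38.p6), where 3 of the 4 family genes were matched. They are shown because their likeness bears on which reads can be assigned to which gene, and the seed, bases 2 to 8, is in capitals.
miR-378b: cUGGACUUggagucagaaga
miR-378c: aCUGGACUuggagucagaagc
miR-378d: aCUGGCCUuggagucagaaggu
Positions are counted from 1 at the 5′ end of miR-378c, whose base is given first. Against miR-378c, miR-378d carried the substitutions A6C, inside the seed, and C21G at the end. MiR-378b began 1 base further in, shared 19 of the 20 bases compared and carried the substitution C21A. The shift of its start gave miR-378b the seed UGGACUU in place of CUGGACU. Each of the 3 seeds was carried by 1 entry among the 1738 mature forms of the table, so the 3 paralogs shared no seed as annotated. No mature form of Mir378a is among these entries, so its seed was not compared. The first 18 bases of miR-378b and of miR-378c, seeds included, also occur in the Mir378a hairpin.

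The hairpins are shown with the mature strand in capitals, since the arm differed between the paralogs.
Mir378b: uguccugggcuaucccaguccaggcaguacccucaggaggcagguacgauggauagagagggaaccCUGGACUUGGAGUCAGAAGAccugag
Mir378c: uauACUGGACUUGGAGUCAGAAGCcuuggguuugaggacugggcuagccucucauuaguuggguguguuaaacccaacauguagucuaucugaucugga
Mir378d: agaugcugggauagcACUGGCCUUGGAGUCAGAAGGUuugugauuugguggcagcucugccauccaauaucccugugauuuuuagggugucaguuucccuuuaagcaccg
In Mir378b the mature strand lay on the 3′ arm, at bases 67 to 86 of 92. In Mir378c it lay on the 5′ arm, at bases 4 to 24 of 99, and in Mir378d on the 5′ arm as well, at bases 16 to 37 of 110. The longest stretch that the Mir378a hairpin shared with another family hairpin was 20 nt with Mir378c, 19 nt with Mir378b and 15 nt with Mir378d. Mir378b and Mir378c shared 19 nt with each other, and each shared 14 nt with Mir378d. Reads that match several places were counted for no gene, so a read that ended inside a shared stretch is missing from the counts of Mir378a, Mir378b and Mir378c. How many such reads there were was not analysed here.

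The genes lie on 4 chromosomes (mm10, 1-based). Mir378a (ENSMUSG00000105200.1, chromosome 18, 61397835 to 61397900, minus strand) lies in the first intron of Ppargc1b, on the strand of Ppargc1b and 2390 nt from the nearest exon. Gm25301 (ENSMUSG00000093026.1, chromosome 18, 61397813 to 61397925, plus strand) covers all 66 nt of the Mir378a hairpin and reaches 22 and 25 nt beyond its ends. Mir378b (ENSMUSG00000092985.1, chromosome 11, 88352773 to 88352864, plus strand) lies in an intron of Msi2, an RNA-binding protein gene, and runs against it. Mir378c (ENSMUSG00000099036.1, chromosome 14, 46954830 to 46954928, minus strand) lies in an intron of Samd4 and also runs against it. Mir378d (ENSMUSG00000098756.1, chromosome 10, 126710282 to 126710391, minus strand) lies in no other annotated gene, 158036 nt from Atp23 and 694923 nt from Lrig3. Mir378a was thus the 1 member that shared its strand with a host gene.

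Replicate 1 held 6417302 own-strand counts over all microRNA genes and replicate 2 held 5662222, and levels are given in CPM, own-strand counts scaled to these totals. Each read stands for 1 small RNA, so counts were not divided by hairpin length. Heart muscle markers (Mir208a, Mir208b and Mir499, which lie in myosin genes) were present in both libraries, at a summed 20993 and 19146 CPM, with none at 0. The endothelial marker Mir126a had 51829 and 73011 CPM. The 6 brain markers (the Mir9 and Mir124a genes) lay at or under the floor of 3 counts each, with Mir9-1 and all 3 Mir124a genes at 0. Tissue is a mixture of cells, so that fewer cells of a type and less RNA per cell cannot be told apart.

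Nearly all counts of the family belonged to Mir378a. It held 664357 counts in replicate 1 and 609930 in replicate 2, which is 103526 and 107719 CPM and a mean of 105623 ± 2965 CPM (SD, n = 2). Among the 2202 genes it had the most counts in both hearts. This place leaves out the 5722879 and 5835632 multi-mapped reads, so it does not rank Mir378a against microRNAs made from several like copies, such as miR-1 and miR-133. Replicate 1 gave it 10.35% of the counts, with an exact (Clopper-Pearson) 95% interval of 10.33 to 10.38, and replicate 2 gave it 10.77%, with an interval of 10.75 to 10.80. Of all sequenced reads, including those that mapped nowhere or to several places, it took 4.60% and 4.52%. Intervals cover counting error only, since the labels name no molecular identifiers and reads amplified by PCR are not independent molecules.

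The paralogs lay from 2401 to 10545 times below it in counts. Mir378c held 267 and 254 counts, or 41.6 and 44.9 CPM (mean 43.2 ± 2.30, SD, n = 2). Mir378d held 165 and 166 counts, or 25.7 and 29.3 CPM (mean 27.5 ± 2.55). Mir378b held 63 and 70 counts, or 9.82 and 12.4 CPM (mean 11.1 ± 1.80). The order Mir378c, Mir378d, Mir378b was the same in both hearts, and within each heart the exact Poisson 95% intervals of the 3 counts did not overlap. In replicate 1 these ran from 236 to 301 for Mir378c, from 141 to 192 for Mir378d and from 48 to 81 for Mir378b. In replicate 2 they ran from 224 to 287, from 142 to 193 and from 55 to 88. Divided by hairpin length the order was also the same, at 0.437, 0.250 and 0.121 CPM per nt against 1600 for Mir378a. MiR-378b and miR-378c share their first 18 bases with Mir378a. Whether reads of Mir378a were counted for Mir378b or Mir378c was not tested, so their levels and order hold for the counts as assigned.

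**Figure D1:**
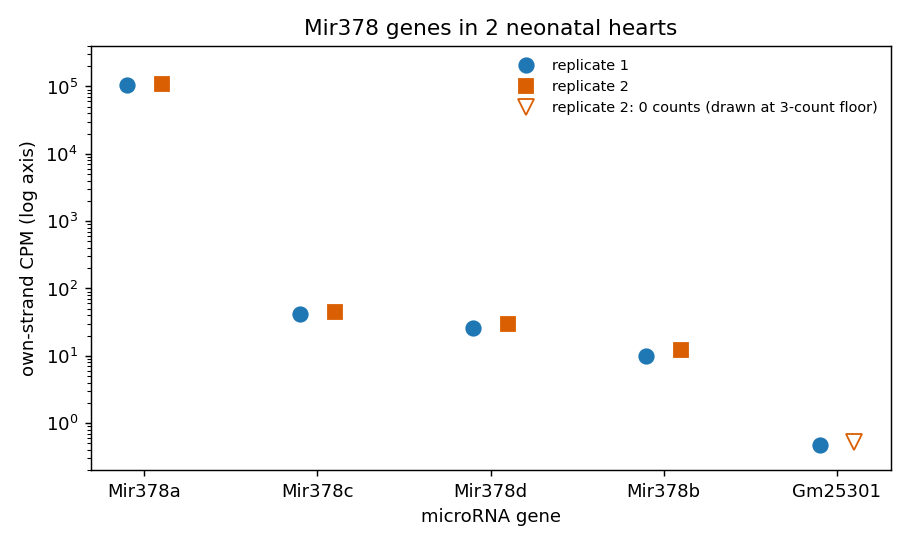
Own-strand CPM on a log axis for Mir378a, Mir378c, Mir378d, Mir378b and Gm25301, with 1 point per library (circles, replicate 1, and squares, replicate 2) and an open triangle at the floor of 3 counts where a library had 0. Mir378a sits near 105623 CPM in both hearts and its paralogs between 9.82 and 44.9 CPM.

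**Figure D2:**
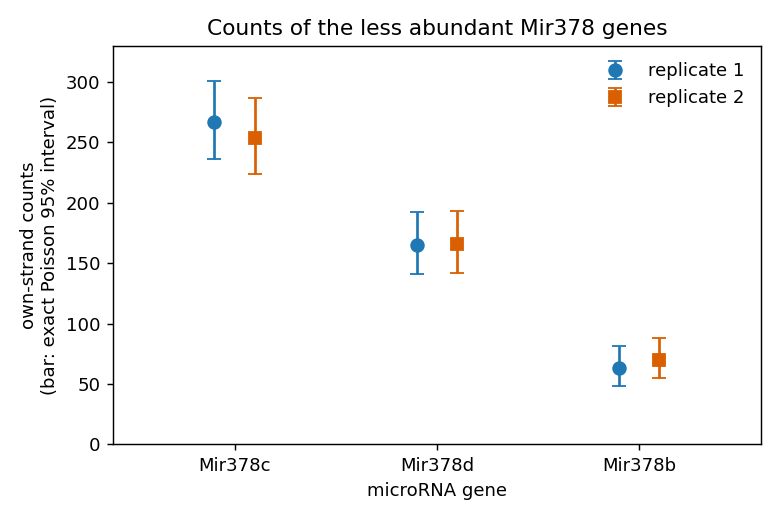
Own-strand counts of Mir378c, Mir378d and Mir378b in each library, with bars for the exact Poisson 95% interval. The intervals of the 3 genes do not overlap within a heart, while those of the same gene overlap between the hearts.

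Of the counts of the 4 family genes, 99.9255% belonged to Mir378a in replicate 1 (exact 95% interval 99.9187 to 99.9320) and 99.9197% in replicate 2 (99.9123 to 99.9267). These intervals overlap. For each count of Mir378c there were 2488 and 2401 of Mir378a, for each of Mir378d 4026 and 3674, and for each of Mir378b 10545 and 8713. Among the 495 and 490 counts that Mir378b, Mir378c and Mir378d held together, the intervals of each gene's share also overlapped between the hearts. Mir378c made up 53.9% (49.4 to 58.4) and 51.8% (47.3 to 56.3), Mir378d 33.3% (29.2 to 37.7) and 33.9% (29.7 to 38.3), and Mir378b 12.7% (9.92 to 16.0) and 14.3% (11.3 to 17.7). All of these shares leave out multi-mapped reads.

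In the order of all genes by these counts, Mir378a stood 11665 CPM above Mirlet7i, a let-7 gene at 93958 ± 597 CPM (SD, n = 2), a gap larger than the spread of either gene, and above it in both hearts. Mirlet7g came next, at 79144 ± 2385 CPM. The paralogs stood at places 210 (Mir378c), 234 (Mir378d) and 281 (Mir378b) of the mean level, and their direct neighbours there are named although they were chosen after their values were seen. For Mir378d and Mir378b, the gap to both neighbours was smaller than the spread between the hearts. Mir378d held 27.5 CPM between Mir204 (27.8 ± 2.45) and Mir1a-2 (27.4 ± 8.74), and Mir378b held 11.1 CPM between Mir452 (11.3 ± 6.03) and Mir3097 (10.8 ± 2.56). Mir378c lay above Mir200b (42.7 ± 22.3 CPM) by less than that spread, and below Mir1249 (47.3 ± 2.78 CPM) by more than the SD of either gene.

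**Figure D3:**
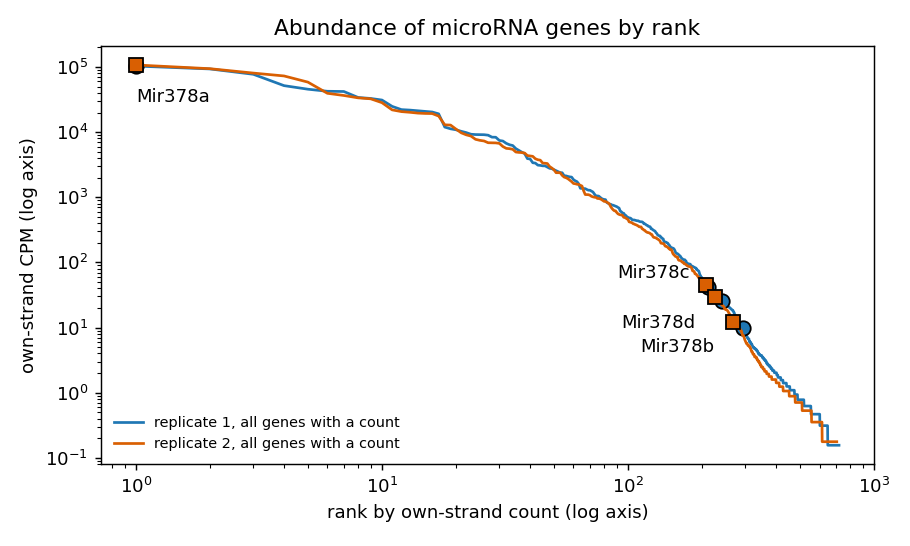
Own-strand CPM of every gene with a count against its rank in each library, on log axes, with the 4 family genes marked by circles (replicate 1) and squares (replicate 2). Mir378a opens both curves, while its paralogs lie on the steep part, between places 208 and 292.

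None of the family genes differed by 2-fold between the hearts. The libraries were compared gene by gene with a two-sided exact binomial test on totals scaled by TMM factors (a trimmed mean of ratios), which knows counting noise alone and compares these libraries, not conditions. A gene was called at a Benjamini-Hochberg adjusted p under 0.05 and a difference over 2-fold. Of the 4 members tested 0 were called, against 55 of 491 genes (11.2%, of which 3.67% of the 491 were higher in replicate 1 and 7.54% in replicate 2), and Gm25301 had too few counts to be tested. The log2 ratio of replicate 1 over replicate 2 was -0.39 for Mir378a (1.31-fold), -0.44 for Mir378c (counting SE 0.13), -0.52 for Mir378d (SE 0.16) and -0.66 for Mir378b (SE 0.25), so every one of the 4 was lower in replicate 1. At any fold, all 4 passed the exact binomial test, with adjusted p = 0.00131 for Mir378c, 0.00291 for Mir378d and 0.0184 for Mir378b, as did 47.9% of the 491 genes. Those lower in replicate 1, like the 4 members, were 29.1% of the 491.

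Scaling by total counts moved the median log2 ratio of the tested genes by 0.33, from -0.02 to 0.31. The 4 genes stayed lower in replicate 1, at -0.06 for Mir378a, -0.11 for Mir378c, -0.19 for Mir378d and -0.33 for Mir378b, but the 3 paralogs no longer passed the exact binomial test (adjusted p = 0.510, 0.348 and 0.286). The numbers of all genes called went from 18 higher in replicate 1 and 37 higher in replicate 2 to 39 and 22, as genes crossed the 2-fold line. When the spread between libraries was estimated from the data as well (edgeR's exact test), the adjusted p was 1 for each of the 4 members. Of the 491 genes, 4 were called (0.815%). That spread came from the same 2 libraries that were compared, so it holds the differences tested, and equal levels cannot be read from it.

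**Figure D4:**
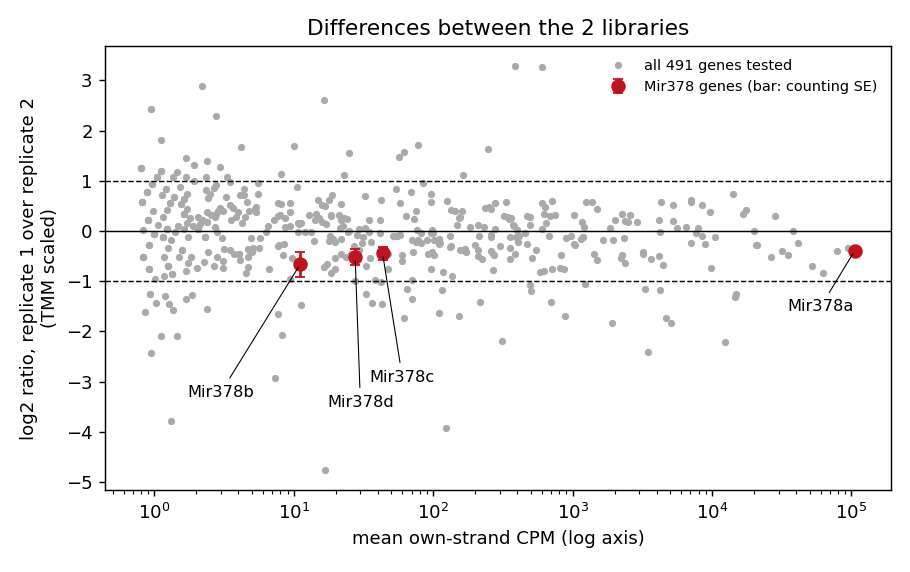
Log2 ratio of replicate 1 over replicate 2 after TMM scaling against the mean own-strand CPM (log axis) for the 491 genes tested, with the 4 family genes in red, bars for their counting SE, and dashed lines at 2-fold. The 4 genes lie between -0.39 and -0.66, inside the lines.

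Among the 71 genes with at least 1000 CPM in each library, 36 had a smaller TMM-scaled gap than Mir378a, whose 0.39 lay near their median of 0.38. On total counts its gap was 0.06 and 4 of the 71 had a smaller one, with a median of 0.36. The 5 of these genes whose log2 ratio lay nearest to that of Mir378a were Mirlet7g (-0.39), Mir335 (-0.40), Mir411 (-0.43), Mirlet7i (-0.35) and Mir455 (-0.47). That likeness is a difference of 1 ratio over 2 libraries and does not amount to a correlation. Some markers of other cells differed more between the libraries. Mir206, known from skeletal muscle, another tissue known to hold much miR-378, had 718 and 58.5 CPM, a 12.3-fold gap. Mir378a differed 1.04-fold in CPM and 1.31-fold after TMM scaling. The 3 erythroid markers summed to 788 and 299.7 CPM, with none at 0. The leukocyte markers went opposite ways, Mir142 at 240 and 87.4 CPM and Mir223 at 83.1 and 148 CPM. Smooth muscle markers were higher in replicate 2, Mir143 at 45694 and 58717 CPM and Mir145a at 1361 and 1614 CPM, as was the endothelial Mir126a. In CPM, the heart muscle genes Mir208a and Mir499 differed 1.81-fold and 2.82-fold in opposite directions, and Mir208b differed 1.32-fold in the direction of Mir208a. The part of such cells in the level of Mir378a was not tested.

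The files give 3 counts per gene, without column names. By their layout, which is that of STAR's gene counts, they were read as both strands together, the gene's own strand and the opposite strand, and this reading is an inference. At the Ppargc1b locus the 3 counts differed. On its own strand Mir378a had 664357 and 609930 reads, and on the opposite strand it had 2 and 0. The own-strand reads of Gm25301 were 3 and 0, and its opposite-strand reads were 664363 and 609930. The opposite-strand reads of Gm25301 were therefore those of Mir378a plus 6 more in replicate 1 and none more in replicate 2. Together with 1 own-strand read of Gm25301 that did not touch Mir378a, these 6 make the 7 reads that the count without strand gave to Gm25301 in replicate 1.

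Reads from the strand opposite to Ppargc1b were at or under the floor of 3 counts at this place. The 3 reads of Gm25301 in replicate 1 were 0.467 CPM (exact Poisson 95% interval of the count 1 to 9). Its 0 counts in replicate 2 (interval 0 to 4) lay under the floor of 3 counts, which is 0.530 CPM there. Opposite-strand reads made up 0.000301% of the reads over the Mir378a hairpin in replicate 1. In replicate 2 there were 0, where the floor of 3 counts would be 0.000492%. Mir378b, Mir378c and Mir378d had 0 opposite-strand reads in both hearts. The share on the opposite strand was compared between the hearts with a two-sided Fisher exact test over 516 genes, of which 1 was called (0.194%), Mir24-1. Mir378a, with 2 opposite-strand reads in replicate 1 and 0 in replicate 2, was not called (Fisher exact test, adjusted p = 1). So few such reads could not have given a call at any split. Mir378b, Mir378c and Mir378d had no opposite-strand read and so could not be called, and Gm25301 lies over Mir378a, so nothing is read from the members' count.

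In the count without strand, Mir378a had 0 reads in both libraries, where reads over genes on both strands are, under the same inference, set aside as ambiguous. The reads over Mir378a made up 54.3% of all ambiguous reads in replicate 1 and 51.8% in replicate 2. In the same way, Gm25301 held 54.3% and 51.8% of all opposite-strand counts of the libraries, which are sense reads of Mir378a except for the 6 in replicate 1. Of the 137 genes with at least 1000 own-strand counts in each library, 10 fell below 10% of that count when strand was left out. All 10 have an annotated microRNA gene on the other strand, against 64 of the 2202 genes counted. How many of the 137 have one was not counted. Under the same inference the loss follows from the overlap, so nothing further is read from it. Of the 137, 125 had no opposite-strand read in either library. Among the 137, the highest opposite-strand shares were those of Mir24-1 (11.2% and 1.85%, with Mir3074-1 on the other strand), Mir337 (0.204% and 0.185%, with Mir3544), Mir324 (0.0799% and 0.0708%), Mir574 (0.0561% and 0%) and Mir434 (0% and 0.0503%).

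**Figure D5:**
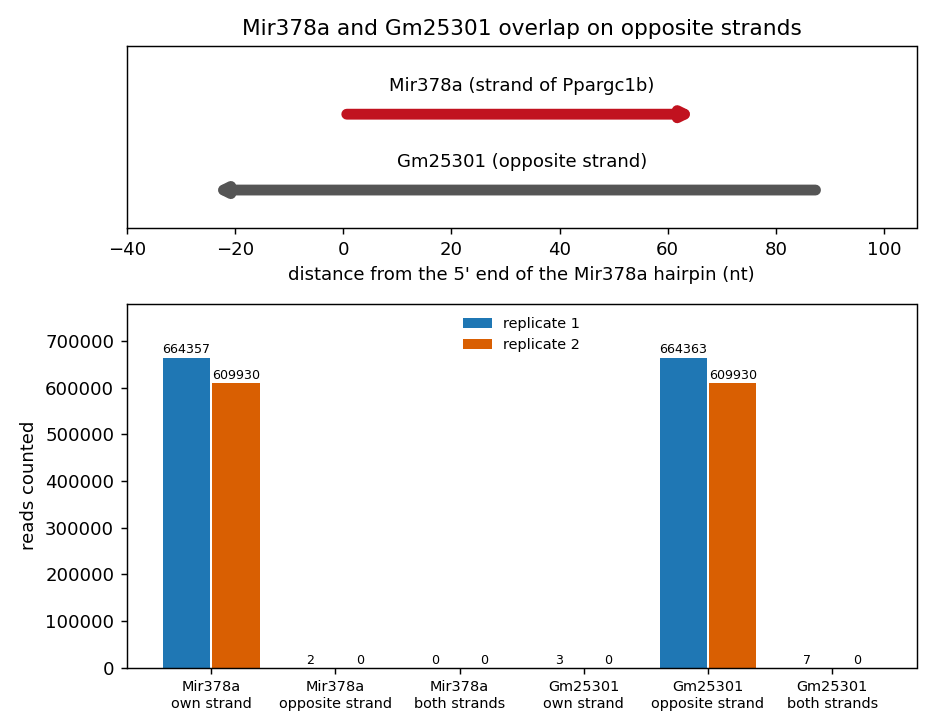
Above, the hairpins of Mir378a and Gm25301 by distance in nt from the 5′ end of Mir378a, with arrows for the direction of each gene. Below, the reads counted on the own strand, on the opposite strand and without strand for both genes in each library (bars from 0, values printed): the bars of Mir378a on its own strand and of Gm25301 on the opposite strand are the same reads but for 6 in replicate 1, and the count without strand gives Mir378a none.

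Of microRNA genes known for roles in lipid, glucose or mitochondrial metabolism, 16 were listed beside Mir378a, and all 16 were tested. All 16 held fewer counts than Mir378a, as did every other gene counted. Their median was 793 CPM, against 21.9 CPM over the 491 genes tested. The list holds the heart muscle markers Mir208a, Mir208b and Mir499 and the smooth muscle marker Mir143. It was also chosen with earlier results of these data known, so nothing about metabolic microRNAs as a group is read from that median. Between the hearts none of the 16 was called higher in replicate 1, 3 were called higher in replicate 2 and 13 were not called (exact binomial test). Over the 491 genes tested, 3.67% were called higher in replicate 1 and 7.54% higher in replicate 2. The 3 were Mir27b, known from lipid metabolism (19520 and 30888 counts, log2 ratio -1.18), Mir499, which lies in Myh7b (17027 and 42393 counts, -1.83), and Mir26a-2 (122 and 1298 counts, -3.92). Of these 3, only Mir26a-2 was called by edgeR's exact test, which allows for spread beyond counting noise (adjusted p = 0.000264, against 0.438 for Mir499 and 1 for Mir27b). Under total-count scaling Mir27b (-0.84) came under 2-fold, which left 2 called.

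The nearest in level to Mir378a on that list was Mir143, known from smooth muscle and adipocytes, at 52205 ± 9209 CPM (SD, n = 2). The heart muscle gene Mir208a, whose microRNA is known to target Med13, held 8451 ± 3439 CPM. Mir107, which lies in a pantothenate kinase gene, held 4231 ± 649 CPM, while its relatives Mir103-1 and Mir103-2 held 2.37 ± 0.610 and 23.0 ± 6.52 CPM. Mir33, known for its role in cholesterol export and lying in Srebf2, held 13.9 ± 0.992 CPM, near the level of Mir378b, and the liver gene Mir122 held 95.7 ± 13.4 CPM. Mir210, a hypoxia-induced microRNA with mitochondrial targets, held 715 ± 147 CPM. The levels of Mir103-1, Mir103-2, Mir26a-1 and Mir26a-2, like those of the Mir378 genes, leave out reads that matched several places.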

How the data were processed

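MicroRNA-seq of 2 heart libraries was used, each technical replicate 1 of its heart, with replicate numbers and animals taken from the labels. The deposited values are raw read counts per microRNA gene, without normalization or pooling, on mm10 with GENCODE M21, per the file headers of the accompanying descriptions. For the aligner, counter and trimming, names and versions are not given in the sources used. All 2202 identifiers matched M21. Which column holds which strand was inferred from the file layout. The own-strand count was used, which held 84.0% and 82.8% of the stranded counts. Sense reads of Mir378a were counted again as opposite-strand reads of Gm25301, so the remainder is not a share of antisense reads. Of 14450527 and 13495259 reads, 44.4% and 42.0% were assigned on the own strand, and 39.6% and 43.2% were multi-mapped and are in no gene's count. Summary entries stayed out of library sizes.

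CPM was computed on the own-strand total. Genes with at least 10 counts in the sum were compared between libraries with exact binomial tests (scipy 1.17.1, Python 3.11.15) on TMM-scaled totals (edgeR 4.0.16, R 4.3.3, factors 1.12 and 0.891), with 0.5 added to counts in log2 ratios and Benjamini-Hochberg adjustment over all genes. The opposite-strand share was compared with Fisher's exact test for genes with at least 10 counts over both strands and libraries. Scripts were tested on simulated data. A chi-square of 709 per degree of freedom over 491 genes separated the libraries from sampling noise, so they are not the same library deposited again. With 1 group there are 2 replicates, and SDs rest on 2 values.

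Sequences are from RefSeq (GRCm38.p6), and shared stretches were computed from M21 transcripts. The genome outside annotated transcripts and CAST alleles were not searched. Members and gene lists were chosen with earlier results of these data known. The text names all members, the 2 genes below Mir378a in level, the 5 nearest to it in ratio, the 5 with the highest opposite-strand share among genes with at least 1000 own-strand counts in each library, and genes of the metabolic and marker lists. Alternatives were total-count and DESeq2 1.42.0 scaling, no minimum, edgeR's exact test, the count without strand, multi-mapped reads in the total, a minimum of 100 counts for strand shares, and leaving out each library.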

Additional observations from a re-analysis of the deposited data

How the results depend on the processing

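No member was called between the libraries under total-count scaling, DESeq2 size factors, no minimum count, edgeR's exact test or the count without strand, and the log2 ratios of the 4 family genes stayed below 0 in all of these that gave a value (Mir378a, -0.39 to -0.06, Mir378b, -0.69 to -0.33, Mir378c, -0.46 to -0.11, Mir378d, -0.54 to -0.19). In the count without strand, Mir378a and Gm25301 had too few reads to be tested, so only the 3 paralogs could have been called there. The count of called genes was 55, within 1.5 times of it under 4 alternatives (48 to 61), and 4 with edgeR's exact test, where the called genes of the metabolic list went from 3 to 1 (2 under total-count scaling, without Mir27b). The level of Mir378a, 105623 CPM, was 0 in the count without strand, where its reads are, by the inferred column reading, counted as ambiguous. It was 53886 CPM with all multi-mapped reads added to the total, a lower bound on its share. Leaving out each library gave 103526 to 107719 CPM for Mir378a, 99.9197% to 99.9255% for its share of the family and 0% to 0.000301% for its opposite-strand share. A minimum of 100 counts left 319 genes in the strand comparison and again 1 called. The counts of the 3 paralogs, 63 to 267 in a library, limit what can be seen of them. No paired analysis was possible because there is only 1 group.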

Other observations

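With at least 1000 own-strand counts in both libraries, 10 genes all but lost their reads when strand was left out. Mir378a was the most abundant of them. The others were Mir126a, an endothelial microRNA gene with Mir126b opposite (62420 ± 14977 CPM, SD, n = 2, with 17 and 19 reads in the count without strand), Mirlet7e (10515 ± 1052 CPM), Mir30e (9647 ± 3286 CPM), Mir191 (7092 ± 306 CPM), Mir409 (752 ± 239 CPM), Mir497 (646 ± 156 CPM), Mir337 (619 ± 201 CPM), Mir299a (355 ± 37.3 CPM) and Mir24-1 (214 ± 24.98 CPM). For these last 8 the count without strand gave 0 or 1 read in each library. All 10 genes have another microRNA gene annotated over them on the other strand. That such reads are set aside as ambiguous is an inference from the file layout.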
